A study of Homo sapiens with 4 samples.

Results

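CTBP1 and CTBP2 are corepressors: they bind no DNA sequence themselves, and are brought to promoters by transcription factors such as ZEB1 and ZEB2. There they hold an enzyme complex that removes active histone marks and adds repressive ones. The 10 genes described here encode its core: the corepressors CTBP1 and CTBP2, the DNA-binding recruiters ZEB1 and ZEB2, the scaffold RCOR1 (CoREST) with the histone demethylase KDM1A (LSD1), the deacetylases HDAC1 and HDAC2, and the H3K9 methyltransferases EHMT1 (GLP) and EHMT2 (G9a). The complex is best known for silencing epithelial genes during epithelial-mesenchymal transition, and CoREST with KDM1A for keeping neuronal genes silent under the repressor REST. The genes were chosen by symbol, 10 of the 57820 genes in the count table, by a rule that used no measured value, although results of these data were already known when the genes and the lists below were set.

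The counts came from RNA-seq of SK-N-SH cells, an established human neuroblastoma line, with 2 libraries from cells given a lentivirus carrying the lncRNA RP5-998N21.4 under an EF1a promoter (OE) and 2 from cells given the empty lentivirus (vector control). All cells were transduced, so the groups differed in the insert. The control libraries were titled WT, but their treatment label gives the empty vector, which was followed here. CTBP1 protein was among those that the study predicted to bind RP5-998N21.4 and also found in a pulldown from HEK293T lysates. Its overexpression in HEK293T cells carrying the lncRNA did not raise mRNA of the study's target genes IFIT2 and IFIT3. The comparison here takes another measure in another cell line. It asks whether the RNA levels of CTBP1 and its complex moved with the lncRNA.

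Library totals ran from 23785164 to 28307591 counts. RP5-998N21.4 itself went from 32 and 33 counts (vector control) to 2407 and 2808 counts (OE), a log2 fold change of 6.11 (SE 0.108, adjusted p = 0.0109 by edgeR's quasi-likelihood test). Of 10 adrenergic neuroblastoma markers, 9 had a mean above 1 CPM (counts scaled to a common library size and corrected for composition) and TH, which makes the precursor of catecholamines, was at 0. All 8 mesenchymal neuroblastoma markers exceeded 1 CPM, and 0 of 9 genes of other tissues did.

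With the cutoffs of the study (adjusted p below 0.01, log2 fold change beyond 0.5 either way), 0 of the 9 complex genes tested were called between OE and vector control. The same cutoffs called 0% of the 20528 genes in the test. Even RP5-998N21.4 itself was not called (adjusted p = 0.0109, edgeR), so the absence of calls does not show that the genes were unchanged. Before adjustment, 1 complex gene with p under 0.05 was higher in OE and 0 were lower, where 10.1% of all genes tested were higher and 10.7% were lower. The gene was CTBP2. DESeq2, which called 8.77% of all genes with these cutoffs, called 0 of the complex genes with them and 1 at an unadjusted p under 0.05. The tenth gene, EHMT2, was at 0 in all 4 libraries and was not tested. The median log2 fold change of the 9 genes was -0.02, against 0.007 over all genes tested.

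**Figure D1:**
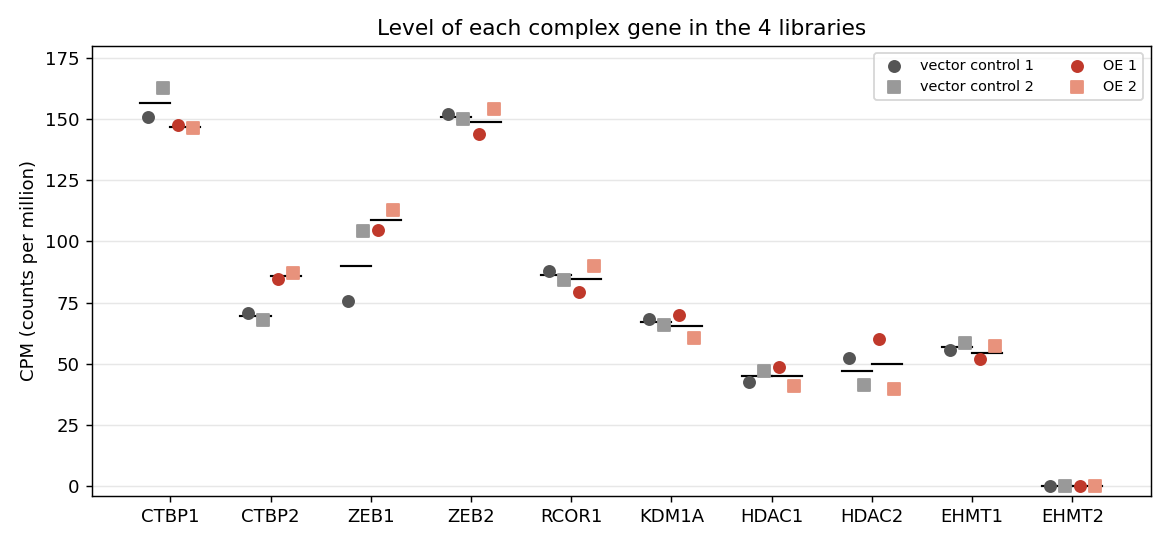
Level of the 10 complex genes in CPM (vertical axis) in each library. Grey points are vector control libraries, red points OE libraries, and black lines the mean of each pair. CTBP2 separates by condition, ZEB1 and HDAC2 differ most between libraries of one condition, and EHMT2 lies at 0.

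CTBP2 (ENSG00000175029.12, chr10:126672886-126849739, minus strand, GRCh37) had 1650 and 1594 counts with the empty vector, against 2121 and 2519 with the insert. It was higher in each OE library than in either control. Scaled levels were 69.4 ± 2.14 CPM (vector control) and 85.8 ± 1.81 CPM (OE), as mean ± SD with n = 2 each. The log2 fold change was 0.31 (SE 0.0828, 95% confidence interval 0.07 to 0.54), with an adjusted p of 0.176 (edgeR's quasi-likelihood test, Benjamini-Hochberg over the whole table). Libraries of one condition lay close together, 1.24 times the standard error of counting apart in the vector control and 1.01 times in OE. Leaving out any single library put the unadjusted p above 0.05, with the log2 fold change between 0.27 and 0.33 and the adjusted p between 0.319 and 0.366 (edgeR). DESeq2 gave the same log2 fold change, 0.31, with an adjusted p of 0.000787, below the study's cutoff for p and short of its cutoff for the fold change.

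Nearly all CTBP2 counts fell on 1 transcript, ENST00000337195, which encodes the common corepressor form and took from 95.7% to 96.6% of the gene's counts. RIBEYE, the longer product made from another promoter of CTBP2 and known from ribbon synapses, had 4, 0, 12 and 8 counts on its transcript ENST00000309035 (vector control 1 and 2, then OE 1 and 2, the order used for all values below). The exons of CTBP2 share 3416 bases with ZRANB1, a deubiquitinase gene on the opposite strand, but 0 of them lie in ENST00000337195. ZRANB1 had 1148, 1248, 1286 and 1826 counts.

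CTBP2 has processed pseudogenes of nearly the same sequence, and how reads that match several of them were counted is not given in the sources used here. CTBP2P4 on chromosome 5 matched the CTBP2 transcript at 96.9% of 921 aligned positions and CTBP2P8 on chromosome 1 at 95.3% of 1331, with identical runs of up to 128 and 122 bases. A coding stretch of CTBP2 that both pseudogenes cover is shown to make this visible. It is taken from GRCh37 at chr10:126682424-126682513 (minus strand), chr5:97912448-97912537 (plus strand) and chr1:68627864-68627953 (minus strand), and capitals mark bases that differ from CTBP2, 3 of 90 in CTBP2P4 and 6 of 90 in CTBP2P8.
CTBP2: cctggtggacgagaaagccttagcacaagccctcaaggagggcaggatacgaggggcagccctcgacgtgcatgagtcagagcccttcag
CTBP2P4: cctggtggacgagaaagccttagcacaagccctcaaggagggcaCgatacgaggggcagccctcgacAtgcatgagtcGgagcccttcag
CTBP2P8: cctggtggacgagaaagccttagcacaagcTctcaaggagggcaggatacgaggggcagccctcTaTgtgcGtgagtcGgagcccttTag

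CTBP2P4 had 713, 675, 990 and 1137 counts, with both OE values above both others. Its log2 fold change was 0.41 (SE 0.0942, adjusted p = 0.146, edgeR), with the unadjusted p under 0.05. CTBP2P8 had 454, 497, 643 and 705 counts and a log2 fold change of 0.30 (adjusted p = 0.255, edgeR), with the unadjusted p above 0.05. The fold changes of both rows had the sign of that of CTBP2, and their intervals overlapped with its interval. For each CTBP2 count there were 0.432, 0.423, 0.467 and 0.451 counts on CTBP2P4 and 0.275, 0.312, 0.303 and 0.28 on CTBP2P8. Whether these reads came from CTBP2 or from the pseudogenes was not tested. Summed over the 3 rows, counts were 2817, 2766, 3754 and 4361, with a log2 fold change of 0.33 (adjusted p = 0.126, edgeR). Of the other CTBP2 pseudogenes, CTBP2P6 had 0, 0, 4 and 2 counts, CTBP2P7 had 8, 15, 0 and 4, and CTBP2P1, CTBP2P2, CTBP2P3 and CTBP2P5 had 0 in every library.

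CTBP1 (ENSG00000159692.11, chr4:1205233-1244121, minus strand) had 3514, 3820, 3701 and 4238 counts. Scaled levels were 157 ± 8.25 CPM (vector control) and 147 ± 0.691 CPM (OE; SD, n = 2), the OE values being the lower pair. The log2 fold change was -0.09 (SE 0.0753, interval -0.31 to 0.12), with an adjusted p of 0.549 by edgeR. Of the complex genes tested, 1 (CTBP1) did not overlap between the groups and was lower in OE, against 27.6% of all genes tested. In the other direction there were 2, CTBP2 and ZEB1, against 27.8% of all genes tested. The counts of CTBP2 per CTBP1 count were 0.47 and 0.417 in the vector control and 0.573 and 0.594 in OE. The coding parts of the paralogs are 80.7% identical over 1018 aligned bases, with no identical run over 29 bases. ENST00000382952 took from 87.5% to 93.6% of the CTBP1 counts. CTBP1-AS2, a noncoding gene that starts beside CTBP1 on the opposite strand and shares 701 exonic bases with it, had 390, 368, 429 and 531 counts and a log2 fold change of 0.13 (adjusted p = 0.594, edgeR).

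**Figure D2:**
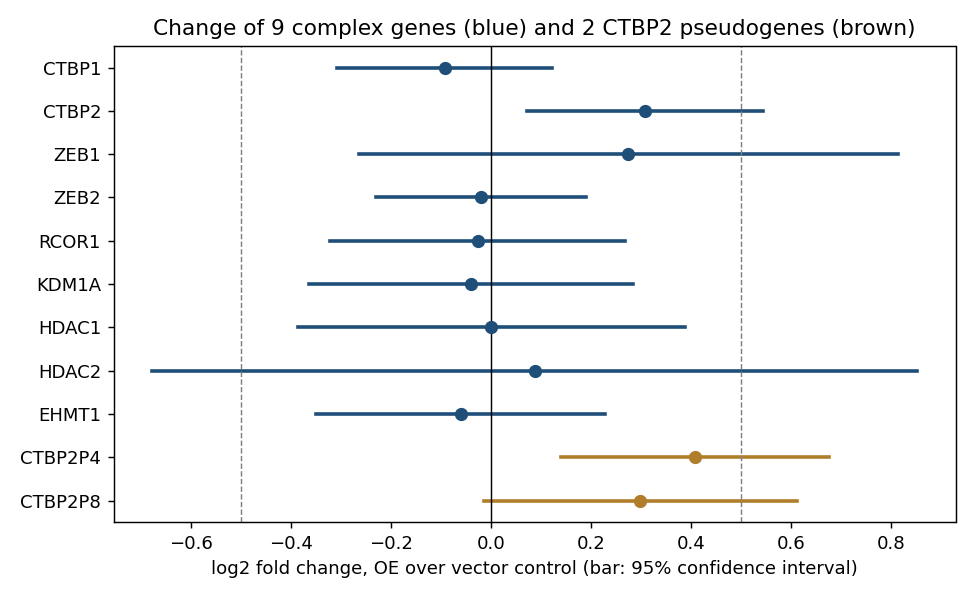
Log2 fold change of OE over vector control (horizontal axis) for the 9 complex genes tested, in blue, and for 2 CTBP2 pseudogenes, in brown. Bars are 95% confidence intervals from edgeR and dashed lines mark the study's limit of 0.5. The intervals of CTBP2 and CTBP2P4 lie above 0, and those of ZEB1 and HDAC2 are the widest.

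ZEB1 (ENSG00000148516.17, chr10:31607424-31818742, plus strand) encodes a zinc-finger repressor that binds E-boxes and recruits CTBP proteins. It had 1757, 2450, 2627 and 3259 counts, or 75.5 and 104 CPM in the vector control and 105 and 113 CPM in OE. Vector control replicate 1 was low, and replicate 2 lay next to the OE pair. The log2 fold change was 0.27 (SE 0.189, interval -0.26 to 0.81), with an adjusted p of 0.481 by edgeR. The vector control libraries differed by 1.38-fold, 10.4 times the standard error of counting. Without vector control replicate 1 the log2 fold change was 0.05, and without replicate 2 it was 0.52 (adjusted p = 0.25, edgeR). Such fits leave 1 vector control library, which is assumed to vary as the OE libraries do. ZEB1-AS1, which starts beside ZEB1 on the opposite strand, had 610, 409, 790 and 798 counts (log2 fold change 0.44, adjusted p = 0.399, edgeR). It shares 396 exonic bases with ZEB1.

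ZEB2 (ENSG00000169554.12, chr2:145121931-145278624, minus strand), the paralog of ZEB1, had 3539, 3528, 3614 and 4454 counts and was 151 ± 1.3 CPM in the vector control and 149 ± 7.04 CPM in OE (SD, n = 2). The groups overlapped, with a log2 fold change of -0.02 (SE 0.0737, interval -0.23 to 0.19, adjusted p = 0.909, edgeR). ZEB2-AS1, an antisense RNA known to act on ZEB2 splicing, had 13, 14, 30 and 32 counts. Its log2 fold change was 0.99 (SE 0.307, adjusted p = 0.208, edgeR), with the unadjusted p under 0.05, at a level near 1 CPM. It shares 1299 exonic bases with ZEB2. The library kit does not mark strand, so reads of such antisense pairs cannot be told apart where their exons overlap. The pseudogene ZEB2P1 had 194, 174, 185 and 235 counts, a log2 fold change of -0.02.

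RCOR1 (ENSG00000089902.8, chr14:103058986-103196898, plus strand), the CoREST scaffold that ties KDM1A to the deacetylases, had 2050, 1979, 1988 and 2599 counts, all on 1 transcript. It was 86.1 ± 2.7 CPM in the vector control and 84.5 ± 7.51 CPM in OE (SD, n = 2), and the groups overlapped. The log2 fold change was -0.03 (SE 0.103, interval -0.32 to 0.27, adjusted p = 0.912, edgeR).

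KDM1A (ENSG00000004487.11, chr1:23345936-23410182, plus strand) removes methyl groups from H3K4. It had 1593, 1547, 1758 and 1750 counts and was 67.1 ± 1.82 CPM in the vector control and 65.3 ± 6.76 CPM in OE (SD, n = 2), overlapping, with a log2 fold change of -0.04 (SE 0.113, interval -0.36 to 0.28, adjusted p = 0.876, edgeR). The counts were shared between the coding transcript ENST00000356634, with 704, 707, 787 and 679, and the retained-intron transcript ENST00000602503, a single exon of 2810 bases, with 888, 839, 969 and 1069. The second took from 54.2% to 61.1% of the gene's counts.

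HDAC1 (ENSG00000116478.7, chr1:32757684-32799236, plus strand) had 987, 1109, 1220 and 1185 counts. Its mean was 44.8 CPM in both groups, with an SD of 3.4 CPM in the vector control and 5.41 CPM in OE (n = 2). The interval of the log2 fold change ran from -0.39 to 0.39. Its pseudogene HDAC1P2, 87.2% identical over 1450 aligned positions, had 142, 109, 101 and 35 counts (log2 fold change -1.04, SE 0.643, adjusted p = 0.437, edgeR), and HDAC1P1 had 0.

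HDAC2 (ENSG00000196591.7, chr6:114254192-114332472, minus strand), the close paralog of HDAC1 in the same complexes, had 1223, 971, 1511 and 1142 counts. Replicate 1 was above replicate 2 in both groups, by 1.27-fold in the vector control and 1.52-fold in OE, or 5.58 and 10.8 times the standard error of counting. Scaled levels were 46.9 ± 7.92 CPM (vector control) and 49.8 ± 14.7 CPM (OE; SD, n = 2). The log2 fold change was 0.09 (SE 0.268), and its interval, -0.68 to 0.85, was the widest of the 9 genes. A change of the size seen for CTBP2 was therefore not detectable for HDAC2 in these libraries.

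EHMT1 (ENSG00000181090.13, chr9:140513444-140764468, plus strand), which methylates H3K9 as a partner of EHMT2, had 1292, 1370, 1302 and 1655 counts. It was 56.9 ± 1.99 CPM in the vector control and 54.6 ± 3.77 CPM in OE (SD, n = 2), and the groups overlapped. The log2 fold change was -0.06 (SE 0.101, interval -0.35 to 0.23, adjusted p = 0.78, edgeR).

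EHMT2 (ENSG00000204371.7, chr6:31847536-31865475, minus strand) was listed at 0 on all 12 of its transcripts in all 4 libraries, as was EHMT2-AS1. The same held for its neighbours. Of 43 other protein-coding genes within 250 kb of EHMT2, 43 had 0 counts in every library, compared with 18.4% of 19360 coding genes elsewhere. These include BAG6, CSNK2B, CLIC1 and LSM2, which most cells use. Within 1000 kb, 95 of 98 were at 0, and the highest had 18 counts over the 4 libraries. The zeros cover nearly every coding gene of this stretch of the major histocompatibility region, so they give no level, limit or fold for EHMT2. Their cause was not tested.

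**Figure D3:**
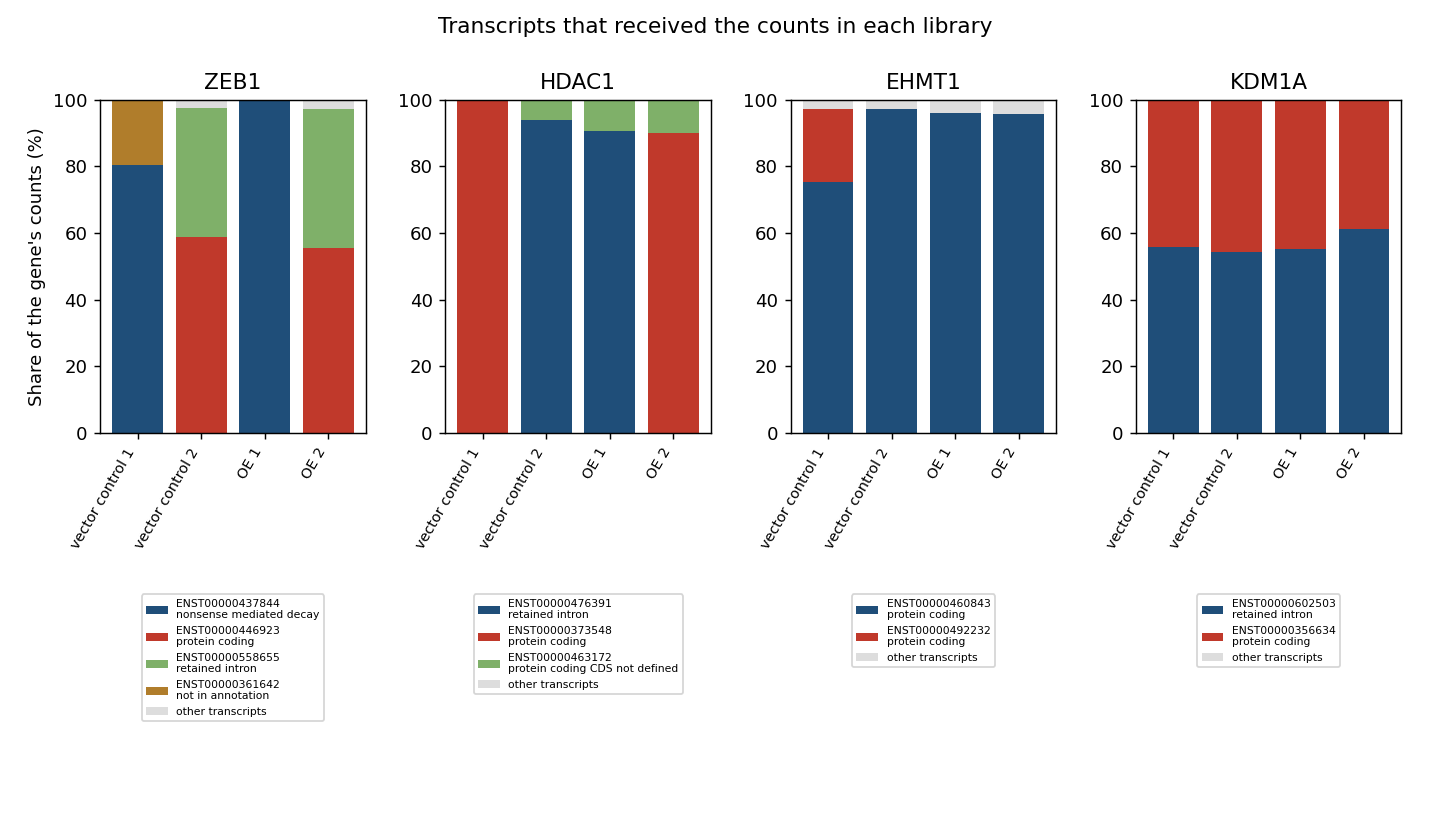
Share of the counts of ZEB1, HDAC1, EHMT1 and KDM1A (vertical axis, percent) on each of their transcripts in the 4 libraries (bars), colored by transcript with its annotated type. For ZEB1 and HDAC1 the counts of one library sit on a transcript that is at 0 in another of the same condition, while KDM1A keeps its split.

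The counts are deposited by transcript, and for ZEB1 and HDAC1 the transcript that received them changed between libraries of one condition. ZEB1 counts lay on the nonsense-mediated decay transcript ENST00000437844 in replicate 1 of each group (1414 and 2627) and at 0 on it in replicate 2. It held 80.5% of the gene's counts in vector control 1, where ENST00000361642 had the other 343, and 100% in OE 1. In replicate 2 they lay on the coding ENST00000446923 (1441 and 1806) and the retained-intron ENST00000558655 (951 and 1365), both at 0 in replicate 1. ENST00000437844 and ENST00000446923 share 5869 exonic bases, 94% of the first. HDAC1 counts lay on the coding ENST00000373548 in vector control 1 and OE 2 (987 and 1067) and on the retained-intron ENST00000476391 in vector control 2 and OE 1 (1042 and 1107), each at 0 where the other was used. Vector control replicate 1 had 284 EHMT1 counts on ENST00000492232, which was at 0 in the other libraries. The leading transcript differed between libraries for 2 of the 9 complex genes, and for 12.1% of 5055 genes with at least 900 counts in every library. Neither switch followed the condition, and sums per gene were used for the tests above.

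Levels of different genes can be set side by side only per length, here as counts per kilobase of transcript, scaled as TPM values are. On this scale CTBP1 was highest, with 126 to 128 in the vector control and 125 to 127 in OE. ZEB2 followed at a mean of 77 over the 4 libraries and CTBP2 at 58.6. KDM1A (46.5), HDAC1 (44.4), ZEB1 (42.9), EHMT1 (32.4) and RCOR1 (30.3) came next, and HDAC2 was lowest at 13.3. CTBP1 and ZEB2 did not overlap with any other gene in any library. The ranges of KDM1A and HDAC1 overlapped, and that of ZEB1, 19.7 to 63.4, reached from under RCOR1 into the range of CTBP2. EHMT1 had 54.3 in vector control replicate 1 and from 22.8 to 27 in the others. With the union of all exons of a gene as its length, CTBP1 had the highest mean (34.6) but overlapped with RCOR1 (33.1), which was above it in OE replicate 2. RCOR1, ZEB1 (27.6) and HDAC1 (27.1) passed CTBP2 (16.8) and ZEB2 (13.8), so the order depends on the length used.

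Partners of the complex were read from gene lists set beside it. CTBP partners are transcription factors and cofactors that bind CTBP proteins directly, and 26 of 29 were tested. At an unadjusted p under 0.05, 4 were higher in OE and 1 was lower, with a median log2 fold change of 0.08 (0.048 to 0.176 with a library left out). In this and the lists that follow, these counts stand beside the 10.1% of all genes tested that were higher and the 10.7% that were lower at that limit. SATB1, a chromatin organizer, had 1229, 1196, 1910 and 2275 counts (log2 fold change 0.58, SE 0.0852, adjusted p = 0.0893, edgeR). TGIF1, a corepressor of TGF-beta signaling, had 1642, 1563, 2379 and 2764 counts (log2 fold change 0.47, adjusted p = 0.106, edgeR). ZFPM1, the GATA cofactor FOG1, had 411, 403, 595 and 605 counts (log2 fold change 0.36, adjusted p = 0.232, edgeR). RAI2, named after its values were seen, had 54, 53, 119 and 132 counts (log2 fold change 1.02, adjusted p = 0.0987, edgeR). ZNF217, a zinc-finger oncogene product that binds CTBP proteins and CoREST, was lower, with 5435, 5056, 4111 and 4733 counts (log2 fold change -0.45, SE 0.0736, adjusted p = 0.0972, edgeR). Of the list, 0 genes reached an adjusted p under 0.05 (edgeR), where 58 of all genes were higher and 64 lower. With the study's cutoffs DESeq2, which called 8.77% of all genes with them, called 2 of the CTBP partners, both higher.

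CoREST and KDM1A partners gave 1 higher and 2 lower of 14 tested, near the share of all genes, with a median log2 fold change of -0.07, which was 0.08 without vector control replicate 2. DESeq2, which called 8.77% of all genes with the study's cutoffs, called 0 higher and 2 lower of this list with them. GSE1, a subunit of KDM1A complexes, had 3891, 3932, 6061 and 6586 counts (log2 fold change 0.49, SE 0.0669, adjusted p = 0.0808, edgeR). HMG20B, the BRAF35 subunit of the same complexes, had 1456, 1632, 917 and 1165 counts (log2 fold change -0.78, SE 0.113, adjusted p = 0.0875, edgeR), and 369 of its exonic bases lie in MFSD12 on the opposite strand. SNAI2, the repressor Slug, had 1654, 1586, 1099 and 1233 counts (log2 fold change -0.68, SE 0.089, adjusted p = 0.078, edgeR), and it is also on the list of mesenchymal markers. REST itself had 3672, 3524, 3420 and 4237 counts, a log2 fold change of -0.12 with an adjusted p of 0.461 (edgeR). Scaled, this was 157.7 and 150 CPM in the vector control and 136.3 and 146.5 CPM in OE. The OE values were the lower pair, as for 27.6% of all genes tested.

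Of 20 NuRD and SIN3 subunits, the other complexes that hold HDAC1 and HDAC2, 1 was higher and 1 lower, no larger a share than over all genes, with a median of -0.09. These counts moved with single libraries: 2 were higher without vector control replicate 1, 0 without replicate 2, and 2 were lower without OE replicate 1, while 2 were higher and 2 lower without OE replicate 2. The median then ran from -0.13 to -0.020. MTA3 had 689, 681, 977 and 1134 counts (log2 fold change 0.42, adjusted p = 0.131, edgeR). SIN3A, the SIN3 scaffold, had 3237, 2304, 1616 and 1701 counts (log2 fold change -0.94, SE 0.206, adjusted p = 0.134, edgeR). Among 12 other H3K9 methyltransferases and demethylases, 1 was higher and 1 lower, again near the share of all genes. Their median was 0.07, and with a library left out it ran from 0.025 to 0.067. The 2 genes are named next. They were KDM7A (listed as JHDM1D), a demethylase, with 817, 807, 1323 and 1647 counts (log2 fold change 0.66, adjusted p = 0.0865, edgeR), and SUV39H1, a methyltransferase of heterochromatin, with 453, 499, 342 and 336 counts (log2 fold change -0.69, adjusted p = 0.128, edgeR).

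Of 9 other histone deacetylases, 1 was higher and 0 were lower, which is also near the share of all genes. HDAC10, a polyamine deacetylase, had 0 counts in both vector control libraries and 299 and 400 in OE, at least 99.9-fold higher when the vector control is set to the limit of 3 counts per library. It passed the filter on low counts only through the OE libraries, where it is high, so its call (adjusted p = 0.0419, edgeR) is no support for a change of the list. Without vector control replicate 1 the list gave 2 higher and 1 lower, and without OE replicate 1 it gave 2 higher. Its main transcript, ENST00000216271, shares 2209 of 2567 exonic bases with the neighbouring gene MAPK12 on the same strand. MAPK12 had 959, 1098, 672 and 658 counts, and the genes together had 959, 1098, 971 and 1058, or 44 ± 3.92 CPM in the vector control and 37.6 ± 1.5 CPM in OE (SD, n = 2). The summed counts were not higher in OE, and the division of reads between the genes is uncertain. With the study's cutoffs DESeq2 called 1 NuRD or SIN3 subunit lower, 1 H3K9 enzyme in each direction and 1 of these deacetylases higher. It called 8.77% of all genes with them.

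**Figure D4:**
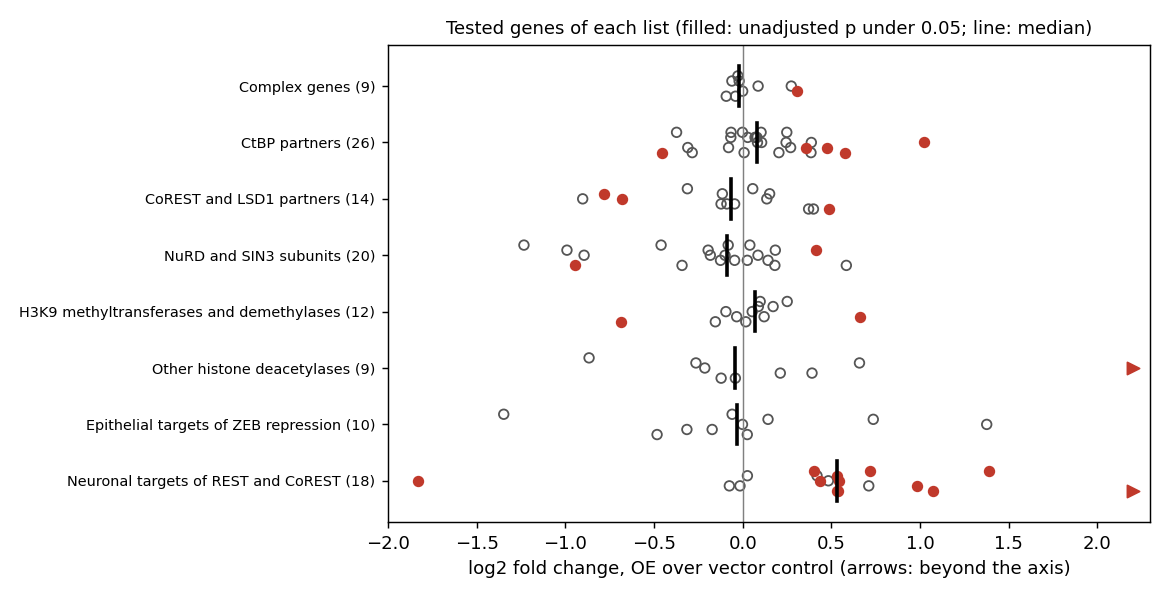
Log2 fold change of OE over vector control (horizontal axis) of each tested gene in the complex and in 7 gene lists, with the number tested in brackets. Filled points have an unadjusted p under 0.05, black lines are medians, and arrows mark HDAC10 and CHRM4, which were at 0 in the vector control. The list of neuronal REST targets has its median at 0.53, and the other medians lie between -0.09 and 0.08.

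Of 20 epithelial genes that ZEB proteins repress, 5 had 0 counts in every library, CDH1 (E-cadherin) among them, and 10 were tested. At an unadjusted p under 0.05, 0 were higher and 0 lower by edgeR, and 0 and 0 by DESeq2. The median log2 fold change was -0.03, and it ran from -0.13 to 0.11 with a library left out. Several of those tested had a mean below 1 CPM, so the counts and the median rest in part on genes near the floor. Leaving out vector control replicate 1 gave 1 higher, and leaving out either OE library gave 1 lower. The list was not uniformly low: KRT18, a keratin, was the most abundant, with 1397, 1307, 1384 and 1614 counts (log2 fold change -0.06), named here after its values were seen.

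The last list holds neuronal genes that REST and CoREST keep silent in other cells. Of 18 tested, 11 were higher and 1 was lower at an unadjusted p under 0.05, where 10.1% and 10.7% of all genes were, and the median log2 fold change was 0.53. At an adjusted p under 0.05 there were 1 higher (CHGA) and 1 lower (TUBB3) in this list, and 58 higher and 64 lower of the 20528 genes tested. CHGA (chromogranin A) had 1157, 1141, 3412 and 3512 counts (log2 fold change 1.39, SE 0.0985, adjusted p = 0.0449, edgeR). L1CAM, a neural adhesion molecule, had 643, 715, 1481 and 1616 counts (log2 fold change 0.98, SE 0.104, adjusted p = 0.066, edgeR). UNC13A, a synaptic vesicle priming factor, had 446, 443, 916 and 1257 counts (log2 fold change 1.07, SE 0.131, adjusted p = 0.075, edgeR). CHRM4, named after its values were seen, had 0, 0, 23 and 20 counts, at least 6.24-fold higher against the limit of 3 counts per library. It is counted among the 11, but passed the filter on low counts only through the OE libraries, where it is high. TUBB3, a neuronal beta-tubulin, was the exception, with 7412, 7986, 2300 and 2696 counts (log2 fold change -1.83, SE 0.0704, adjusted p = 0.023, edgeR).

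The count of higher neuronal genes fell from 11 to 7 without vector control replicate 2, and to 7 without OE replicate 1. It was 8 without vector control replicate 1 and 9 without OE replicate 2, and 1 gene was lower each time. With the study's cutoffs 0 genes of this list passed by edgeR, and 8 higher and 1 lower passed by DESeq2, which called 8.77% of all genes with them. Adrenergic marker genes moved the same way, their summed level being 602.8 and 669.7 CPM in the vector control and 1069 and 1011 CPM in OE, and CHGA is on both lists. At an unadjusted p under 0.05 (edgeR), 7 of the 9 adrenergic markers tested were higher and 0 lower. Of all genes tested, 10.1% were higher and 10.7% lower at that limit. The 8 mesenchymal markers did not move as one. FOSL1 and VIM were higher in both OE libraries than in either control, COL1A1 was lower in both, and FN1 overlapped, all with an unadjusted p above 0.05 (edgeR). Under that limit, 4 of the 8 were lower (PRRX1, SNAI2, YAP1 and CD44) and 0 higher. The summed mesenchymal markers, 3157 and 3274 CPM in the vector control and 3631 and 2117 CPM in OE, do not show this, since VIM (8111, 8217, 31466 and 10869 counts) and COL1A1 (20887, 24416, 22155 and 9422) differed widely between the OE libraries. The part of these marker genes in the result was not tested. In bulk RNA, fewer cells of a type and less RNA per cell cannot be told apart.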

How the data were processed

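RNA-seq libraries of SK-N-SH cells, 2 OE and 2 vector control, were grouped by the treatment label. The authors deposited whole-number counts per Ensembl transcript, without normalization. The submitters' processing notes name Bowtie2 2.0.4, Picard 2.21.6, StringTie 2.1.6, DESeq2 and the build hg19. The counting tool and its use of strand are not given in the sources used here. The kit, TruSeq RNA, does not mark strand.

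Transcript counts were added up by gene (196520 transcripts, 57820 genes). The 20528 genes kept by filterByExpr were normalized by TMM (factors from 0.976 to 1.02) and tested with the quasi-likelihood test of edgeR 4.0.16 in R 4.3.3, 2 libraries against 2, with Benjamini-Hochberg adjustment. The study named DESeq2, which was run as an alternative (version 1.42.0), as was limma-voom (limma 3.58.1). The scripts were tested on simulated data. An exact permutation test of 2 against 2 cannot give a two-sided p below 0.333 and was not used. Nothing in the labels ties libraries to separate cultures, so p-values measure the spread between these libraries, which may be technical. Intervals are 95%, and counting errors and the limit of 3 counts for a 0 cover counting error only.

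Positions, transcript lengths and sequences came from the lifted GENCODE v44 annotation on GRCh37, which held 93% of the transcripts in the table and between 93.2% and 93.7% of the counts. Biopython 1.88 aligned the transcripts. The complex genes, the lists and the tests were chosen with earlier results of these data known, and the pseudogene sum, the exon-union lengths and the leading-transcript count were added after the values were seen. Genes named are the 10 members, RP5-998N21.4, antisense and pseudogene rows carrying a member's symbol, and from each list up to 4 genes with the smallest p among those with an unadjusted p under 0.05, a mean of 5 CPM or more and no overlap between the groups. Others named are overlapping neighbours, fixed marker genes, REST and CDH1 (list members taken with their values known), or are said to have been picked with their values known. BAG6, CSNK2B, CLIC1 and LSM2 were picked as neighbours of EHMT2 in the same way. A further result is not reported here.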

Additional observations from a re-analysis of the deposited data

How the results depend on the processing

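No complex gene passed the study's thresholds, or an adjusted p under 0.05 with the same fold limit, under any alternative: RLE or upper-quartile scaling, DESeq2, limma-voom, minimums of 1 count or a mean of 10, the replicate block, the highest transcript only, leaving out each library and, added after the data were seen, the non-legacy edgeR fit and CTBP2 summed with its pseudogenes. All-gene calls at those thresholds were 0 with edgeR, 1800 with DESeq2, 9 with a minimum of 1 count, 8 with the non-legacy fit, 1 with the highest transcript only and 0 in the rest. The number at an unadjusted p under 0.05 was 1, fell to 0 with the replicate block, and ran from 0 to 1 with a library left out. The 1 without vector control replicate 2 was ZEB1, not CTBP2, in a fit where the lone library of a group is assumed to vary like the other group. Replicate numbers are shared across groups, but no label pairs the libraries. Over the 20528 genes tested, replicate 1 minus replicate 2 in the vector control correlated at -0.0216 with the same difference in OE. That value covers the genes as a whole and does not exclude pairing of single genes. HDAC2, RCOR3 and PRDM2 followed the replicate number. The replicate block gave CTBP2 a log2 fold change of 0.31 (adjusted p = 0.363, edgeR), its unadjusted p then above 0.05, and 3060 genes at an unadjusted p under 0.05 in place of 4269.

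Upper-quartile scaling gave ZEB2 0.020, RCOR1 0.012 and HDAC1 0.040, but it also moved the median of all genes from 0.0071 to 0.0463, so these signs follow from the scaling. Genes near 0 also changed sign under other settings. The highest transcript only gave KDM1A 0.032 and EHMT1 0.086, and HDAC1 was 0.0048 with a minimum of 1 count and 0.0015 with a mean of 10. With a library left out the log2 fold change ran from -0.070 to 0.028 for ZEB2, -0.12 to 0.062 for RCOR1, -0.15 to 0.061 for KDM1A, -0.13 to 0.12 for HDAC1, -0.25 to 0.36 for HDAC2 and -0.13 to 0.0087 for EHMT1. CTBP1 stayed below 0, and CTBP2 and ZEB1 above 0, under every alternative run. With 2 libraries a group, the spread between libraries of one condition, not depth, set the width of the intervals for ZEB1 and HDAC2.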

Other observations

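Several partners of the complex differed more between libraries of one condition than between conditions. Among genes of the 7 lists with a mean of at least 10 CPM, 7 of 84 (8.33%) differed at least 4-fold between the libraries of one condition, close to the 6.77% of 11461 genes at that level. They are named here after their values were seen. PNN, a CTBP-binding splicing factor, had 1563, 147, 23 and 2137 counts (vector control 1 and 2, OE 1 and 2). RBBP4, a histone chaperone of NuRD and SIN3, had 1328, 3277, 27 and 2385, and BRMS1, a SIN3 subunit, had 595, 655, 660 and 18. RCOR3, a paralog of RCOR1, had 283, 1879, 343 and 2109, and PRDM2 had 1536, 402, 1779 and 491, so both followed the replicate number, as the transcripts of ZEB1 did. HDAC7 had 462, 2712, 1189 and 776 counts, and HDAC11 had 607, 11, 576 and 548. The cause was not tested.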
